A study of Rattus norvegicus with 48 samples.

Results

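Lrrc2 (ENSRNOG00000030688) and Coq10b (ENSRNOG00000014456) are 2 nuclear genes with mitochondrial roles, out of 32883 genes counted in the left ventricle of the rat heart. They were chosen from the genes that the study listed as changed by methamphetamine at day 11, Lrrc2 in males and Coq10b in females. Differences of these 2 genes between groups at day 11 are therefore given as a description without a test, and such differences are tested only in hearts collected after abstinence. The correlation of the 2 genes within groups, into which group means do not enter, was tested at both time points.

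RNA sequencing was performed on left ventricles of female and male Sprague Dawley rats, with a separate rat behind each library. The rats were aged 8 weeks when they were divided into groups. Rats received saline or methamphetamine, a psychostimulant, subcutaneously at 5 mg/kg per day for 10 days. Hearts were perfused with Krebs buffer and collected 24 h after the last injection, at day 11, or after 30 days of abstinence. This makes 8 groups of 6 libraries, apart from saline-treated females at day 11 with 5, since 1 library of that group was not analysed here. Saline-treated rats of each time point were the controls of that time point. The 4 groups of a time point were sequenced together as 1 pool, and rats collected after abstinence were older at collection. Time point, pool and age are therefore confounded. The labels give a number to each rat, and the numbers form a lower series up to 4000 and a higher one. Every saline-treated male at day 11 came from the lower series and every methamphetamine-treated male at day 11 from the higher, so series and treatment cannot be told apart between these groups. Every saline-treated male after abstinence was also of the higher series, so series and time point cannot be told apart between saline-treated males.

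Each library held between 6661581 and 11314050 counts assigned to genes (median 9020989). In all 8 libraries labelled replicate 5, 1 per group, a set of 4 genes that separated the labelled sexes stood on the side of the other sex, which occurred in 0 of the other 39 libraries. Libraries of replicate 5 are therefore given apart. Means, SDs and fits leave them out unless stated, and values with them as labelled are given beside the fitted differences of both genes. Of 9 marker genes of ventricular cardiomyocytes, 0 could be matched to an identifier, so the labelled tissue could not be checked by its markers.

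Lrrc2 encodes a leucine-rich repeat protein found at mitochondria of cardiac muscle, and its transcription is known to follow the PGC-1 coactivators, which drive mitochondrial biogenesis. Coq10b encodes a START-domain protein of the inner mitochondrial membrane that binds coenzyme Q. Coenzyme Q is the lipid that carries electrons from complexes I and II to complex III of the respiratory chain. The heart depends on this chain for most of its ATP.

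The upstream sequences of both genes are shown because they place the 2 transcripts in unlike promoter contexts. RefSeq places Lrrc2 on the plus strand of chromosome 8 and Coq10b on the plus strand of chromosome 9 of the GRCr8 build, which is not the build the counts were made on. The 250 bases before the RefSeq start are given 5′ to 3′, at chr8:119816365-119816614 and chr8:119814274-119814523 for the 2 starts of Lrrc2 and at chr9:64047918-64048167 for Coq10b. Capitals mark matches of the motifs searched.
Lrrc2 start 1: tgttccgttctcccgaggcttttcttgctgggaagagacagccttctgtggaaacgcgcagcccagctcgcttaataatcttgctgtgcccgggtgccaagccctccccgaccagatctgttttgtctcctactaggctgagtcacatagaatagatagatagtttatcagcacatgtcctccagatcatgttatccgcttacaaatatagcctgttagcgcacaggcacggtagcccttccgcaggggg
Lrrc2 start 2: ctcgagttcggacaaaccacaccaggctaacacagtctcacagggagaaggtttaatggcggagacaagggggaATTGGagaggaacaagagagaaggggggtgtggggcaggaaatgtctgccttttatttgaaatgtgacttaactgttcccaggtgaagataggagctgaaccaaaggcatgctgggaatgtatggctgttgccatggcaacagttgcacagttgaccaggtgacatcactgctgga
Coq10b: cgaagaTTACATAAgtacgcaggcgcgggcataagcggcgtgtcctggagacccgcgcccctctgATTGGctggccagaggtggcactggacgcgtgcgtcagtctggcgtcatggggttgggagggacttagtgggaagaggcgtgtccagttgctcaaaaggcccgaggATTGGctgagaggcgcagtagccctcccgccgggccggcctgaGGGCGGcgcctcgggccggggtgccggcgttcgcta
The Coq10b window held 67.2% G and C, above 87.9% of the 33469 windows of the same length, and 25 CpG dinucleotides, against a median of 5 over all windows. The windows of Lrrc2 held 52.4% and 50.4% G and C, with 11 and 3 CpG dinucleotides. The motifs were searched on both strands, and none of the matches overlapped another. The Coq10b window held 1 D-box (TTATGTAA, on the other strand as TTACATAA) from 244 to 237 bases before the start, a motif found in 0.828% of all windows. It also held 2 CCAAT boxes (CCAAT, in 34.0% of all windows) and 1 SP1 motif (GGGCGG, in 30.5%). The second Lrrc2 window held 1 CCAAT box. The first Lrrc2 window held none of the 12 motifs. The remaining motifs were the E-box (CACGTG, in 5.59% of all windows), the ROR element (AGGTCA, 14.1%), the estrogen-related receptor element (TCAAGGTCA, 0.388%), the ETS motif (CCGGAAG, 7.27%), the CRE (TGACGTCA, 1.59%), the TATA box (TATAAA, 12.9%) and the glucocorticoid (0.0119%), heat shock (0.663%) and NRF1 (3.75%) elements, and these letters occurred in none of the 3 windows. On GRCr8, the 3 annotated neighbours on either side of Lrrc2 were LOC134480239, Rpl29l4, Cripto, Rtp3, Elobl7 and Ltf. Those of Coq10b were Tmem258b, Rpl11-ps6, Sf3b1, Hspd1, Hspe1 and Mob4. No values are given for these neighbours or for Coq10a, the paralog of Coq10b, since their identifiers were not matched.

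Lrrc2 transcripts were readily detected in every library, with 624 to 1908 counts, and Coq10b was counted 92 to 454 times. Levels are in CPM, which scales the counts of a gene to 1000000 assigned counts in that library. Counting error alone amounts to a CV of 2.29% to 4.0% for Lrrc2 and 4.69% to 10.4% for Coq10b. The CV among rats of a group was 5.39% to 22.4% for Lrrc2 and 6.09% to 27.1% for Coq10b.

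Lrrc2 was lowest in saline-treated males at day 11. In this group the 5 libraries held 107.6, 115.9, 82.4, 110.8 and 118.0 CPM, with a mean of 106.9 ± 14.3 CPM (SD, n = 5). In methamphetamine-treated males at day 11, Lrrc2 stood at 157.1, 154.2, 137.1, 144.4 and 150.5 CPM, with a mean of 148.7 ± 8.01 CPM (SD, n = 5). Every methamphetamine-treated male was above every saline-treated male, in the comparison from which Lrrc2 was chosen. The share of all genes whose groups were apart in this way was not counted. The fitted log2 fold change was 0.48 (SE 0.08), and 0.47 (SE 0.09) with replicate 5, whose libraries held 173.9 CPM with methamphetamine and 130.8 CPM with saline. In this comparison edgeR called 6.54% of 13887 genes at a Benjamini-Hochberg adjusted p under 0.1, and 0 of 13753 genes with replicate 5. The difference was 0.42 (SE 0.06) without replicate 3 of the saline-treated males, the library at 82.4 CPM. On the deposited normalized counts, the highest saline-treated male (1031 normalized counts) was likewise below the lowest methamphetamine-treated male (1199).

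In females at day 11, Lrrc2 was 146.2, 101.9, 149.4 and 114.0 CPM with saline and 130.0, 148.3, 149.9, 157.6 and 146.7 CPM with methamphetamine. Means were 127.8 ± 23.6 CPM (SD, n = 4) and 146.5 ± 10.1 CPM (SD, n = 5). The groups overlapped, as a pair of saline-treated females stood with the methamphetamine-treated animals and the other two below them. The fitted log2 fold change was 0.20 (SE 0.10), and 0.10 (SE 0.10) with replicate 5 (161.1 CPM with saline and 134.5 CPM with methamphetamine). Of 13986 genes, 9.43% were called in this comparison.

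After 30 days of abstinence, the order of the male groups was the other way round. Lrrc2 in saline-treated males was 159.4, 140.9, 138.6, 161.0 and 188.3 CPM, with a mean of 157.7 ± 20.0 CPM (SD, n = 5). Methamphetamine-treated males after abstinence held 119.0, 139.2, 145.4, 128.1 and 166.5 CPM, with a mean of 139.7 ± 18.1 CPM (SD, n = 5). The ranges overlapped, and the log2 fold change of -0.18 (SE 0.09) was not called by edgeR (Benjamini-Hochberg adjusted p = 0.907), in a comparison that called 14 of 13621 genes, or 0.103%. With replicate 5 (159.4 CPM with saline and 141.5 CPM with methamphetamine) it was -0.18 (SE 0.08, adjusted p = 0.999). Saline-treated males after abstinence did not overlap saline-treated males at day 11, and the share of all genes without overlap was not counted. The log2 difference was 0.59 (SE 0.09), or 0.54 (SE 0.09) with replicate 5. It is given as a description because the day 11 libraries chose the gene. Series, pool and age also differed between these groups, and 202 of 13717 genes were called in this comparison.

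In females after abstinence, Lrrc2 was 124.5, 149.7, 129.8, 126.3 and 123.7 CPM with saline, or 130.8 ± 10.8 CPM (SD, n = 5). With methamphetamine it was 140.8, 97.6, 109.9, 141.8 and 172.9 CPM, or 132.6 ± 29.7 CPM (SD, n = 5). The methamphetamine-treated females spread on both sides of the saline-treated ones. The log2 fold change was -0.03 (SE 0.13, adjusted p = 0.996 by edgeR), and -0.07 (SE 0.11, adjusted p = 0.997) with replicate 5 (144.7 CPM with saline and 124.9 CPM with methamphetamine). In this comparison 0% of 13610 genes were called, while 541 reached an unadjusted p under 0.05, and 6 were called by DESeq2. The difference between the effect in females and that in males after abstinence was 0.14 (SE 0.17, adjusted p = 0.998), and 0.099 (SE 0.14, adjusted p = 0.999) with replicate 5. In that test 0% of 14020 genes were called, while 738 reached an unadjusted p under 0.05 and 26 were called by DESeq2.

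**Figure D1:**
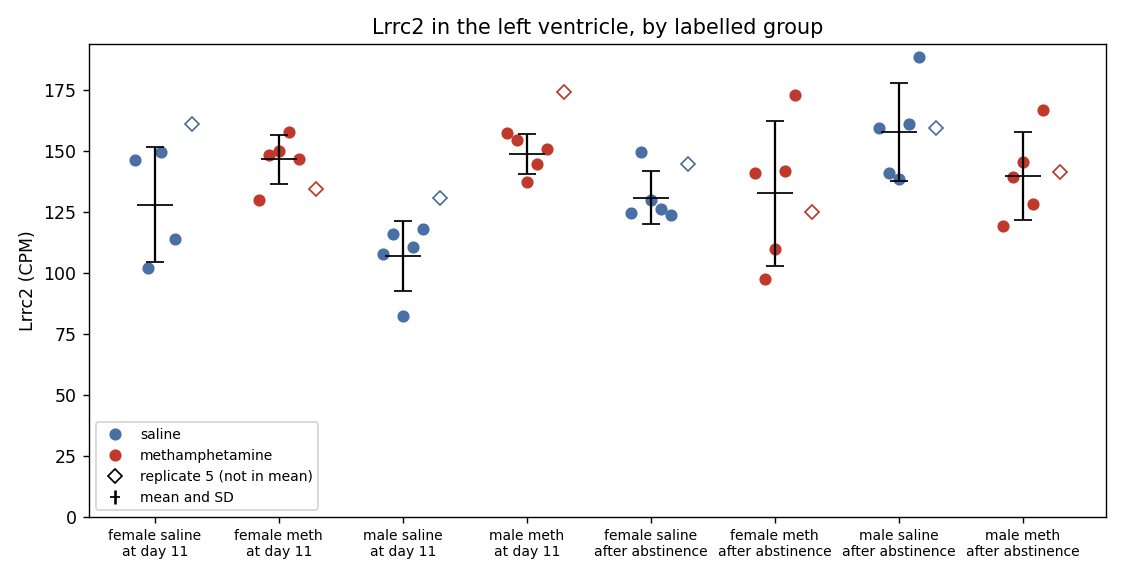
Lrrc2 expression (CPM, vertical axis) in the 8 labelled groups (horizontal axis), with 1 filled point per library, open diamonds for replicate 5, and bars for the mean and SD without replicate 5. Saline-treated males at day 11 lie between 82.4 and 118.0 CPM, below all methamphetamine-treated males at day 11 and all saline-treated males after abstinence.

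Lrrc2 was lower in females than in males among saline-treated rats after abstinence. The female libraries ranged from 123.7 to 149.7 CPM and the male libraries from 138.6 to 188.3 CPM, so the ranges met in part. The log2 difference was -0.26 (SE 0.08) and was called by edgeR at an adjusted p of 0.0909. In this comparison 9.21% of 13538 genes were called, and 5.24% were called and lower in females. The call was lost in 7 of the 10 fits that left out 1 library. It was also lost with replicate 5, where the difference was -0.22 (SE 0.08, adjusted p = 0.187). Replicate 5 stood on the side of the other sex, so adding it as labelled mixes the sexes and is no fair check. Among methamphetamine-treated rats after abstinence, the female minus male difference of Lrrc2 was -0.11 (SE 0.14, adjusted p = 0.889), and 59 of 13652 genes, or 0.432%, were called. With replicate 5 it was -0.12 (SE 0.12, adjusted p = 0.917).

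By group mean, Lrrc2 rose from saline-treated males at day 11 (106.9 CPM) through saline-treated females at day 11 (127.8) and after abstinence (130.8), methamphetamine-treated females (132.6) and males (139.7) after abstinence, and methamphetamine-treated females (146.5) and males (148.7) at day 11, to saline-treated males after abstinence (157.7). Only the step between the lowest group and the next, 20.9 CPM, exceeded the pooled SD of its 2 groups, which was 19.5 CPM. The ranges of all neighbours in this order overlapped.

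Lrrc2 was also described by the 2 series of rats, without a test. The 9 libraries of rats numbered up to 4000 had a mean of 111.9 ± 16.4 CPM (SD, n = 9), with a range of 82.4 to 140.8 CPM. The 30 libraries of rats with higher numbers had a mean of 143.9 ± 17.9 CPM (SD, n = 30), from 101.9 to 188.3 CPM. The lower series made up the saline-treated males at day 11 and 4 of the females after abstinence, and was found in no other group. The saline-treated males at day 11 took part in the choice of Lrrc2, so the gap between the series partly restates that choice. The females of the lower series were methamphetamine replicates 1 to 3 and saline replicate 1, so series and treatment were partly confounded among females after abstinence. Among the females after abstinence, the 4 libraries of the lower series had 118.2 ± 18.6 CPM (SD, n = 4) and the 6 libraries of the higher series 140.7 ± 18.6 CPM (SD, n = 6). With the series as a block, the effect of methamphetamine on Lrrc2 in these females was 0.045 (SE 0.13, adjusted p = 0.936).

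**Figure D2:**
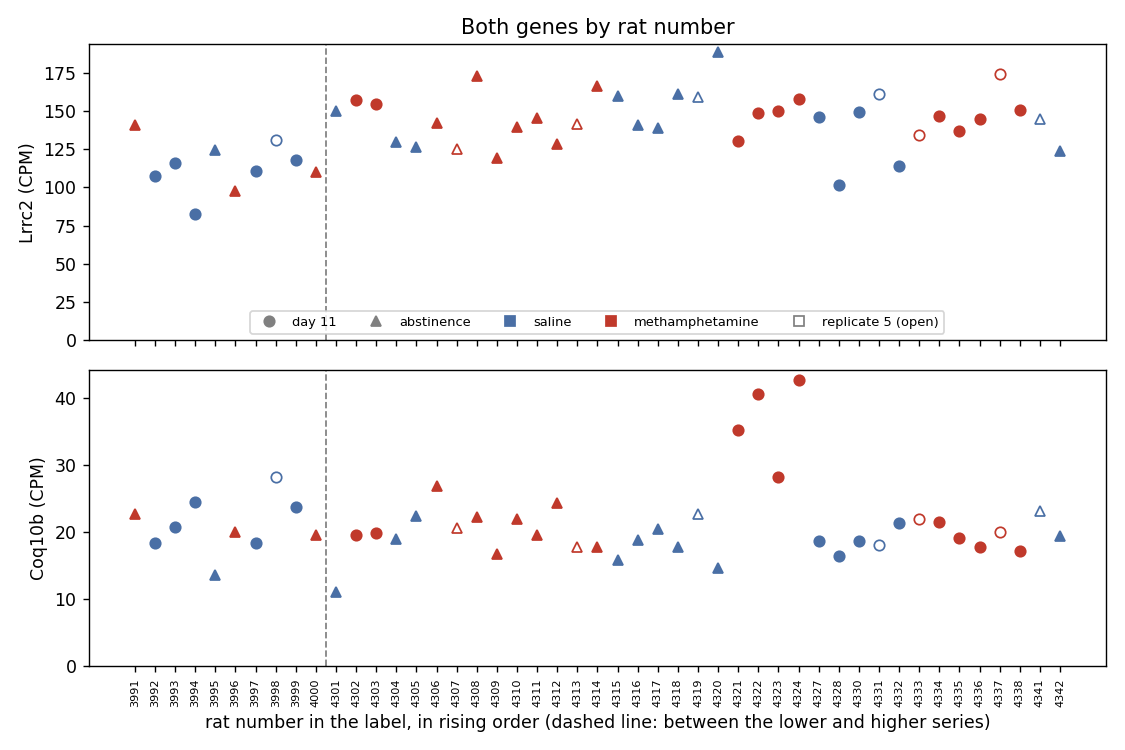
Lrrc2 (upper panel) and Coq10b (lower panel) in CPM against the rat number given in the label, in rising order, with circles for day 11, triangles for abstinence, blue for saline, red for methamphetamine and open symbols for replicate 5. Left of the dashed line, Lrrc2 lies between 82.4 and 140.8 CPM, and the 4 highest filled points of Coq10b belong to neighbouring numbers.

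Coq10b stood apart in 4 methamphetamine-treated females at day 11. In this group Coq10b was 35.3, 40.7, 28.2, 42.7 and 21.5 CPM, with a mean of 33.7 ± 8.81 CPM (SD, n = 5). Saline-treated females at day 11 held 18.6, 16.4, 18.6 and 21.4 CPM, with a mean of 18.8 ± 2.02 CPM (SD, n = 4). All 5 methamphetamine-treated females were above the saline-treated ones, but replicate 6 exceeded the highest of them by little. In this comparison 9.43% of 13986 genes were called, and the share of all genes separated in this way was not counted. Of the 39 libraries, only replicates 1 to 4 of the methamphetamine-treated females at day 11 exceeded 26.9 CPM, the highest level in the 34 libraries of the other groups. These 4 rats carried consecutive numbers, apart from the number of replicate 6. The fitted log2 fold change was 0.85 (SE 0.17), and 0.76 (SE 0.17) with replicate 5, whose libraries held 22.0 CPM with methamphetamine and 18.1 CPM with saline. Without replicate 6 it was 0.97 (SE 0.12). The same 4 females were above the other 34 of these libraries on the deposited normalized counts, where none of the 34 exceeded 231.1. Replicate 5 of the saline-treated males at day 11, held apart, had 255.0 normalized counts and so exceeded replicate 3 of these females (249.7).

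The split of this group was compared with that of other genes, which were picked after their values were seen. Zbtb16, a zinc finger transcription factor induced by glucocorticoids, was 67.4, 67.7, 65.9 and 65.1 CPM in replicates 1 to 4 and 22.7 CPM in replicate 6. Its levels in saline-treated females at day 11 were 11.0 to 18.7 CPM. Tsc22d3, another gene induced by glucocorticoids, did not split in this way, with 154.0, 192.0, 122.5 and 161.6 CPM in replicates 1 to 4 and 137.1 CPM in replicate 6. Per2, a repressor of the circadian clock, did not either, with 136.2 to 141.8 CPM in replicates 1 to 4 and 138.9 CPM in replicate 6, against 17.7 to 23.4 CPM with saline. Replicate 5 of the methamphetamine-treated females was low for all of these genes, with 13.7 CPM of Zbtb16, 68.9 CPM of Tsc22d3 and 29.4 CPM of Per2. In males at day 11, the library with the most Zbtb16 (replicate 6 with methamphetamine, 52.8 CPM) held 17.2 CPM of Coq10b, the lowest value of its group. Over the 39 libraries, with log2 CPM centred on group means, Pearson's r of Coq10b was 0.02 with Zbtb16 and 0.42 with Tsc22d3. With Zbtb16 it was 0.15 at day 11 and -0.13 after abstinence, and with Tsc22d3 0.34 and 0.53. The split that Coq10b and Zbtb16 shared in methamphetamine-treated females at day 11 rests on replicate 6 alone, and a common cause was not tested.

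**Figure D3:**
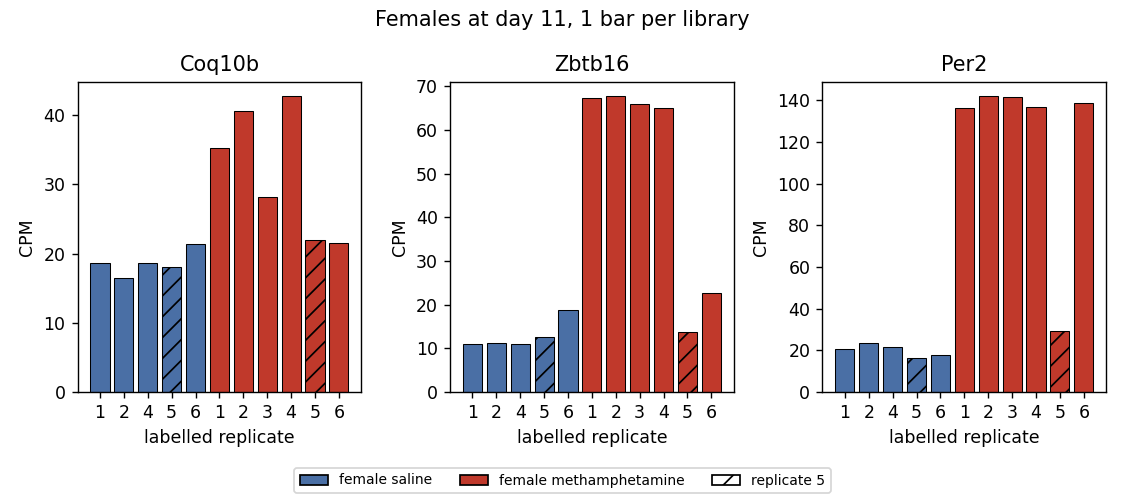
Coq10b, Zbtb16 and Per2 in CPM (vertical axes) in each library of females at day 11, by labelled replicate (horizontal axes), with blue bars for saline, red bars for methamphetamine and hatching for replicate 5. Replicate 6 of the methamphetamine-treated females is at 21.5 CPM of Coq10b and 22.7 CPM of Zbtb16 but at 138.9 CPM of Per2.

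In males at day 11, Coq10b did not move in the direction seen in females. It was 18.4, 20.8, 24.6, 18.4 and 23.8 CPM with saline, or 21.2 ± 2.90 CPM (SD, n = 5). With methamphetamine it was 19.5, 19.9, 19.1, 17.8 and 17.2 CPM, or 18.7 ± 1.14 CPM (SD, n = 5). The ranges overlapped, with 3 saline-treated males above all methamphetamine-treated males. The fitted log2 fold change was -0.17 (SE 0.11), and -0.24 (SE 0.11) with replicate 5, whose libraries held 28.2 CPM with saline and 19.9 CPM with methamphetamine. The former was the highest Coq10b value outside the methamphetamine-treated females at day 11.

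After abstinence, Coq10b in methamphetamine-treated females was 22.7, 20.0, 19.5, 26.9 and 22.3 CPM, with a mean of 22.3 ± 2.91 CPM (SD, n = 5). Saline-treated females after abstinence held 13.6, 11.1, 19.0, 22.4 and 19.4 CPM, with a mean of 17.1 ± 4.63 CPM (SD, n = 5). The groups overlapped only through 1 saline-treated female, at 22.4 CPM. Of the other saline-treated females, 2 were far below the rest, at 13.6 and 11.1 CPM. The log2 fold change of 0.33 (SE 0.17) was not called (adjusted p = 0.994 by edgeR), and was 0.23 (SE 0.16, adjusted p = 0.997) with replicate 5 (23.1 CPM with saline and 20.6 CPM with methamphetamine). With the series of rats as a block it was 0.42 (SE 0.19, adjusted p = 0.847).

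In males after abstinence, Coq10b was 15.9, 18.8, 20.5, 17.8 and 14.6 CPM with saline, or 17.5 ± 2.32 CPM (SD, n = 5). With methamphetamine it was 16.7, 21.9, 19.6, 24.3 and 17.7 CPM, or 20.1 ± 3.10 CPM (SD, n = 5). These groups overlapped, with 2 methamphetamine-treated males above all saline-treated males. The log2 fold change was 0.20 (SE 0.12, adjusted p = 0.952), and 0.095 (SE 0.12, adjusted p = 0.999) with replicate 5 (22.7 CPM with saline and 17.7 CPM with methamphetamine). The effects in females and males differed by 0.13 (SE 0.22, adjusted p = 0.998), and by 0.13 (SE 0.21, adjusted p = 0.999) with replicate 5. Between females and males after abstinence, the log2 difference of Coq10b was -0.02 (SE 0.17, adjusted p = 0.965) with saline and 0.12 (SE 0.12, adjusted p = 0.860) with methamphetamine. With replicate 5, which mixes the sexes when taken as labelled, these were 0.0049 (SE 0.17, adjusted p = 0.992) and 0.13 (SE 0.11, adjusted p = 0.879).

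**Figure D4:**
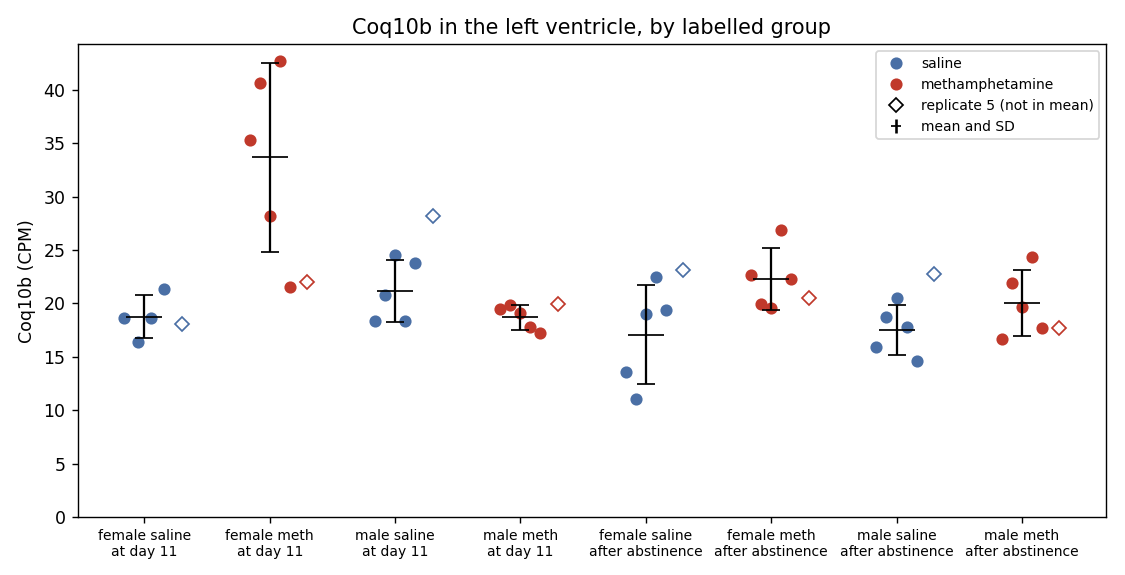
Coq10b expression (CPM, vertical axis) in the 8 labelled groups (horizontal axis), with 1 filled point per library, open diamonds for replicate 5, and bars for the mean and SD without replicate 5. Of 39 filled points, 4 lie above 26.9 CPM, and all 4 are methamphetamine-treated females at day 11.

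By group mean, Coq10b rose from saline-treated females (17.1 CPM) and males (17.5) after abstinence through methamphetamine-treated males (18.7) and saline-treated females (18.8) at day 11, methamphetamine-treated males after abstinence (20.1), saline-treated males at day 11 (21.2) and methamphetamine-treated females after abstinence (22.3) to methamphetamine-treated females at day 11 (33.7). Only the last step, 11.4 CPM, exceeded the pooled SD of its 2 groups, which was 6.56 CPM. In saline-treated rats, Coq10b after abstinence minus day 11 was -0.06 (SE 0.18) in females and -0.25 (SE 0.13) in males on the log2 scale, again as a description. With replicate 5 these values were 0.03 (SE 0.17) and -0.26 (SE 0.14).

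**Figure D5:**
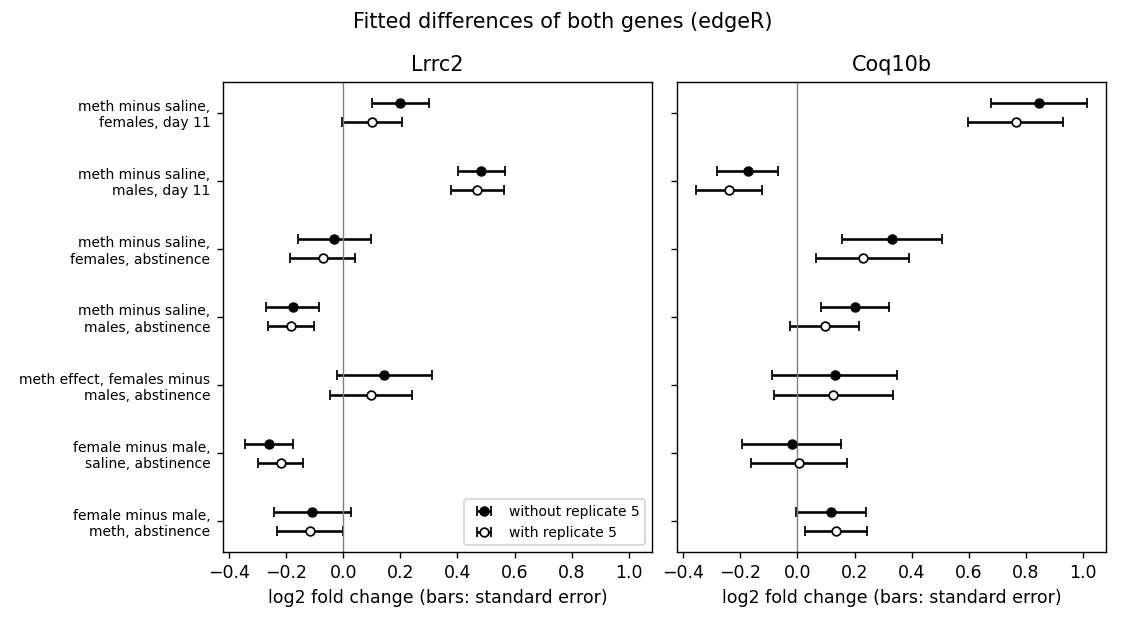
Fitted log2 fold changes of Lrrc2 (left) and Coq10b (right) on the horizontal axes for 7 comparisons on the vertical axis, with bars for the standard error, filled points without replicate 5 and open points with it. Lrrc2 is farthest from 0 in males at day 11 (0.48) and Coq10b in females at day 11 (0.85), the comparisons from which they were chosen.

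Within groups, Lrrc2 and Coq10b did not vary together to a detectable degree. Over 39 libraries, with log2 CPM centred on the mean of each group, Pearson's r was -0.14 (permutation p = 0.296) and Spearman's rho was -0.17 (permutation p = 0.318), and r was -0.22 without the 2 libraries farthest from the median of Lrrc2. By pool, r was -0.04 at day 11 (n = 19, permutation p = 0.848) and rho 0.02 (permutation p = 0.935). After abstinence r was -0.22 (n = 20, permutation p = 0.238) and rho -0.26 (permutation p = 0.241). Without the 2 farthest libraries r was 0.0066 at day 11 and -0.32 after abstinence. After Benjamini-Hochberg adjustment over these 3 relations, the p of r was 0.445 over all libraries, 0.848 at day 11 and 0.445 after abstinence.

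The genes whose centred levels were most like those of Lrrc2, among 14457 genes over the same 39 libraries, were ENSRNOG00000015029 (r = 0.74), Pam (0.73), which encodes the enzyme that amidates peptides, ENSRNOG00000002026 (0.72), ENSRNOG00000057729 (0.72) and ENSRNOG00000006116 (0.72). The most opposite were ENSRNOG00000023764 (r = -0.80), ENSRNOG00000043295 (-0.72) and ENSRNOG00000020660 (-0.71). Coq10b had weaker likeness at the top, with ENSRNOG00000053269 (r = 0.59), ENSRNOG00000009536 (0.58), ENSRNOG00000032585 (0.58), ENSRNOG00000061099 (0.57) and ENSRNOG00000005811 (0.57). Opposite to Coq10b were Thra (r = -0.65), which encodes a thyroid hormone receptor, ENSRNOG00000045943 (-0.60) and ENSRNOG00000014322 (-0.60). For Thra the value was -0.65 at day 11 and -0.67 after abstinence, and for Pam with Lrrc2 it was 0.87 and 0.64. These correlations are descriptions over libraries that share pools and normalization. The genes were picked as the extremes among 14457 over these 39 libraries. Their values by time point come from the same libraries and are therefore no replication. How large r would be among unrelated genes was not tested.

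Genes of related pathways could be given values only where the study's tables pair a symbol with an identifier. Of 235 entries in 21 lists, 10 genes were matched, and 0 of 13 genes of coenzyme Q biosynthesis, 0 of 12 users of coenzyme Q and 0 of 35 nuclear and 0 of 13 mitochondrial genes of the respiratory chain were among them. The study listed these 10 genes from these libraries, so their changes at day 11 are not independent evidence and are given without p. Of the 10, 8 were called in females at day 11 and 1 in males at day 11, beside the 9.43% and 6.54% of all genes, and 0 were called in either sex after abstinence. With replicate 5 as labelled, 8 were called in females and 0 in males at day 11.

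Of 19 genes of the PGC-1 axis, Perm1 and Rxrg were matched. Perm1, a muscle regulator induced by PGC-1 and named after its values were seen, had its lowest mean in the same group as Lrrc2. Its highest mean was in saline-treated females after abstinence, at 442.3 CPM, where Lrrc2 averaged only 130.8 CPM. In saline-treated males at day 11, all of the lower series of rats, replicate 3 was the lowest library for both genes. It held 289.0 CPM of Perm1 and 82.4 CPM of Lrrc2. Perm1 averaged 360.1 ± 46.0 CPM (SD, n = 5) in saline-treated males at day 11 and 426.4 ± 31.2 CPM (SD, n = 5) in methamphetamine-treated males. The log2 fold change of 0.25 (SE 0.09) was not called by edgeR but was called by DESeq2. With replicate 5 it was 0.26 (SE 0.08) and was not called by edgeR. Within groups, Perm1 had r = 0.42 with Lrrc2 over all 39 libraries, 0.71 at day 11 (n = 19) and 0.19 after abstinence (n = 20). For Rxrg, a retinoid receptor, r with Lrrc2 was 0.04 at day 11 and -0.19 after abstinence. Its log2 fold change in males at day 11 was -0.19 (SE 0.08), which was not called. Rxrg fell in females at day 11, with a log2 fold change of -0.37 (SE 0.05). Ucp3, a mitochondrial carrier protein, was the 1 gene matched of 20 of fatty acid oxidation and PPAR targets. It fell in females at day 11, with a log2 fold change of -1.62 (SE 0.16).

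Tsc22d3, the glucocorticoid-induced leucine zipper, and Zbtb16 were the 2 genes matched of 10 glucocorticoid targets. Both rose in females at day 11, with log2 fold changes of 0.76 (SE 0.13) and 2.15 (SE 0.28). Lmod2, which lengthens the thin filaments of striated muscle, was the 1 gene matched of 7 muscle leucine-rich repeat genes. It rose at day 11 by 0.59 (SE 0.05) in females and by 0.33 (SE 0.08) in males on the log2 scale. With replicate 5 the call in males was lost (0.22, SE 0.10). Ier3, an immediate early gene, rose in females at day 11 by 0.54 (SE 0.10) on that scale.

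Markers of other cell types were matched for 1 of 5 atrial, 1 of 6 mural and 1 of 7 leukocyte genes. The atrial light chain Myl4 was 5.96 to 92.1 CPM in saline-treated females at day 11 and 3.0 to 5.67 CPM in methamphetamine-treated ones. Its log2 fold change was -3.18 (SE 0.60). In those saline-treated females, Coq10b was between 16.4 and 21.4 CPM and Lrrc2 between 101.9 and 149.4 CPM. After abstinence, Myl4 was 2.15 to 35.5 CPM and the leukocyte gene Ptprc 19.4 to 76.4 CPM in methamphetamine-treated females, against 1.93 to 4.46 and 19.1 to 24.1 CPM with saline. The pericyte gene Pdgfrb fell in females at day 11, with a log2 fold change of -0.33 (SE 0.08). The part of these markers in the levels of Lrrc2 and Coq10b was not tested. In bulk tissue, fewer cells of a type and less RNA per cell cannot be told apart.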

How the data were processed

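RNA sequencing of rat left ventricles was analysed in 47 libraries, 1 per rat. Per the submitters' processing notes and methods, the authors used Trimmomatic 0.38 for trimming, HISAT2 2.1.0 for alignment to rn6 and DESeq2 1.20.0, on stranded mRNA libraries. They deposited a count of reads per Ensembl gene without normalization. The deposited normalized signal equalled those counts after division by a single factor for each library, and served for alternatives. How reads that align to several genes were handled is not given in the sources used here.

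Groups follow the labels. Lrrc2 and Coq10b and the lists of genes were chosen with earlier results of these data known. Comparisons were fitted one by one without replicate 5, over all genes that passed edgeR's default filterByExpr filter, by quasi-likelihood tests of edgeR 4.0.16 in R 4.3.3 with TMM normalization. The threshold was a Benjamini-Hochberg adjusted p of 0.1. Alternatives used DESeq2 1.42.0 and limma 3.58.1. Standard errors were taken from the fold change and the F statistic. In data simulated for each comparison of 2 groups, with 200 genes changed 2-fold, 85.0% to 94.5% of these were recovered. The fitted differences of Lrrc2 and Coq10b were all below 2-fold, and recovery of such smaller changes was not simulated. Correlations used log2 CPM (prior count 2) and 100000 two-sided permutations within groups. No 2 libraries of a group agreed within sampling noise, the closest of 115 pairs having a chi-square of 2.31 per degree of freedom.

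Named are both genes, their 3 annotated neighbours on either side, the paralog Coq10a, the members of gene lists called in any comparison of methamphetamine with saline (up to 4 per list and comparison), and, for each gene, the 5 with the highest and the 3 with the lowest correlation. Perm1, Ptprc and Per2 are named outside this rule, chosen after their values were seen. Symbols of 328 genes come from the study's tables. Promoter sequences and neighbours come from RefSeq on GRCr8, with 2 starts matched for Lrrc2 and 1 for Coq10b.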

Additional observations from a re-analysis of the deposited data

Results flagged for a closer look

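Replicate 2 of saline-treated females after abstinence held 149.7 CPM of Lrrc2, apart from the other 4 libraries of its group, which held 123.7 to 129.8 CPM. The gap was 76.6% of the whole range of the group. The same library held 11.1 CPM of Coq10b, the lowest value of all 47 libraries. Both genes were examined in 8 groups in this way, and chance gives such a gap in about 1 of 20 groups.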

How the results depend on the processing

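The effects of methamphetamine and the differences between the sexes after abstinence were recomputed under the alternatives of the fit and with each library left out in turn. Lrrc2 in females after abstinence changed sign with voom quality weights (0.074) and with the series of rats as a block (0.045), and ranged from -0.14 to 0.045 with libraries left out, positive without methamphetamine replicates 2 or 3 or saline replicate 2. Lrrc2 between methamphetamine-treated females and males changed sign with voom (0.011; -0.22 to -0.035 with libraries left out), and Coq10b between saline-treated females and males with replicate 5 (0.0049; -0.14 to 0.11 with libraries left out, positive without replicates 1 or 2 of the females or 2 or 3 of the males). The call of Lrrc2 between saline-treated females and males was lost at an adjusted p under 0.05 (-0.26) and with replicate 5 (-0.22), RLE factors (-0.25, adjusted p = 0.101), no filter on low counts (-0.25, 0.128), the replicate block (-0.25, 0.222), the normalized counts with a pseudocount of 1 (-0.25, 0.108) or 0.1 (-0.25, 0.108), and all groups in a single fit (-0.25, 0.186). It was kept with DESeq2 (adjusted p = 0.0736), at least 10 counts in every library (0.0961) and voom (0.0397). With 1 library left out it ranged from -0.30 to -0.19 (adjusted p from 0.0690 to 0.226) and was lost without replicates 1, 3, 4 or 6 of the females or 1, 4 or 6 of the males. Replicate 5 as labelled mixes the sexes, so fits with it are no fair check of differences between the sexes.

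In the remaining comparisons after abstinence, both genes kept their direction and were called by none of these fits. Of the described time differences in saline-treated rats, that of Coq10b in females changed sign, from -0.18 to 0.054 with libraries left out (positive without replicate 2 after abstinence or 6 at day 11) and 0.030 with replicate 5. At day 11, the described differences stayed within 1 SD of the libraries, with 0.42 to 0.52 for Lrrc2 in males and 0.74 to 0.97 for Coq10b in females with libraries left out. Smaller ones moved by over 1.5 times. Lrrc2 in females at day 11 (0.20) was 0.11 without saline replicate 2 and 0.10 with replicate 5, and at most 0.28. Coq10b in males at day 11 (-0.17) was -0.096 without saline replicate 3, and -0.24 without saline replicate 4. The correlation of both genes was 0.038 with replicate 5. Of the 10 list genes, DESeq2 called 2 in males at day 11 and 1 in males after abstinence, and 0 were called in males at day 11 with replicate 5.

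The number of all genes called depended more on the fit, with 0 to 163 in females and 0 to 77 in males after abstinence (0 and 14 in the fits reported), 314 to 3024 and 7 to 871 between the sexes with saline and methamphetamine (1247 and 59), 0 to 26 for the difference between the effects (0), and 581 to 1479 in females and 0 to 1707 in males at day 11 (1319 and 908). In no comparison did every pair of libraries with the same number correlate above 0.1 in its deviations, so the numbers were not taken to pair rats. Per the study, the rats came from 5 breeding females and each litter was spread over all groups. The labels do not name the litter, so it could not be used as a block. Between the time points in saline-treated males all 5 pairs were positive (0.054 to 0.42), and the replicate block raised the genes called there from 202 to 1119, with Lrrc2 at 0.59 and Coq10b at -0.25 as without it. The block changed no other call of both genes after abstinence. With 92 to 454 counts of Coq10b, counting error is up to 10.4% per library, and 5 rats per group limit the precision more.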
